A study of Mus musculus with 3 samples.

Results

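Transcripts that mouse hepatocytes make in bulk, 46 in all, were followed through 3 droplet single-cell RNA libraries of liver, both inside hepatocytes and as stray RNA in the other cells. They were taken by gene symbol from the 31253 genes listed in each library. They comprise 13 secreted or carrier proteins (secreted members), 4 major urinary proteins (Mup members), 11 acute-phase proteins, 6 enzymes of the pericentral zone, 7 enzymes of the periportal zone, and 5 genes of bile acid handling and lipid droplets. The library dHep_IR came from liver labelled Gsdmd∆Hep, with the genotype tag gsdmd-ko, after irradiation. FL_IR came from GsdmdFL/FL liver after irradiation and FL_control from GsdmdFL/FL liver labelled Ctrl, and both carry the genotype tag WT. The irradiated animals received 30 Gy and their livers were taken on day 7, per the series' description. The body region exposed, the Cre driver, the deleted exons, the age and sex, and the number of animals in a library are not given in the sources used here. With 1 library per group there was no replicate check, no test between groups was possible, and every interval given is a 95% interval that covers counting error only. FL_IR against FL_control addresses irradiation and dHep_IR against FL_IR addresses the deletion under irradiation; the 2 comparisons share FL_IR.

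Hepatocytes secrete most plasma proteins, among them albumin, apolipoproteins, transthyretin, protease inhibitors and, in mice, the pheromone-binding major urinary proteins. During inflammation interleukin-6 acts through STAT3, together with C/EBP factors, to raise the acute-phase proteins, while the synthesis of albumin and transthyretin usually goes down. Metabolic enzymes are arranged along the axis from the portal to the central vein, with urea and glucose synthesis on the portal side and drug metabolism on the central side. Hepatocytes are fragile, and their abundant RNA leaks into the suspension and is captured in droplets that hold other cells.

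The promoters shown are acute-phase and secreted members picked for a motif they hold, so they do not stand for their groups. Only the motif named for each is marked. RefSeq promoters (build GRCm38.p6, 250 bases before to 50 after the start) were matched by symbol for 34 of the 46 members. Each line gives the 250 bases before the start, read 5′ to 3′ on the gene's strand. In the first 4, capitals mark a STAT3-like motif, TTCNNNGAA. In Orm2 and Hpx they mark a C/EBP-like motif, TTGCNNAA, and in Alb and Fabp1 an HNF1-like motif, GTTAAT, all searched on both strands.
Fga, fibrinogen alpha chain, chr3:83025903-83026152, plus strand: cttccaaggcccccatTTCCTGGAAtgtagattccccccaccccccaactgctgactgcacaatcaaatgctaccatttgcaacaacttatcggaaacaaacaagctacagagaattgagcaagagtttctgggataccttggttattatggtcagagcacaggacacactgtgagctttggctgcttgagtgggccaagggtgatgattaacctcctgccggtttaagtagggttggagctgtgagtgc
Fgb, fibrinogen beta chain, chr3:83049864-83050113, minus strand: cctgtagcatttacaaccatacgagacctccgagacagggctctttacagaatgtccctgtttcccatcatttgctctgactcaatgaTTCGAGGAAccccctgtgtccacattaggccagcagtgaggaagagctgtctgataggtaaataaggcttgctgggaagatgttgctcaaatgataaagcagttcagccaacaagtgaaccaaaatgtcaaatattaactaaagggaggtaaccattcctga
Hamp, hepcidin, chr7:30944030-30944279, minus strand: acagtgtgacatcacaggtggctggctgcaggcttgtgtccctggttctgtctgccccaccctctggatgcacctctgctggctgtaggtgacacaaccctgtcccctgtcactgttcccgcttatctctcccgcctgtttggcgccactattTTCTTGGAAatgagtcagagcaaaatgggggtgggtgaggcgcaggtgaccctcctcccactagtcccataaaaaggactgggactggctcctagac
Itih4, inter-alpha-trypsin inhibitor heavy chain, chr14:30886226-30886475, plus strand: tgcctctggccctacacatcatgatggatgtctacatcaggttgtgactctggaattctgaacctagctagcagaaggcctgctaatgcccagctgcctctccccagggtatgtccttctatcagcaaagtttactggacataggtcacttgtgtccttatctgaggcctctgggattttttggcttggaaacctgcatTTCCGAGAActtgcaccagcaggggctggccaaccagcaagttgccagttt
Orm2, alpha-1-acid glycoprotein, chr4:63362199-63362448, plus strand: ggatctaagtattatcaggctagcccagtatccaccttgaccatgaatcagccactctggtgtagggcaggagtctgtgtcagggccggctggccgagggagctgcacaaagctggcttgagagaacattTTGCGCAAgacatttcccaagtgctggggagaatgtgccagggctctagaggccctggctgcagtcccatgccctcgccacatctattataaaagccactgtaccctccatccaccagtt
Hpx, hemopexin, chr7:105600117-105600366, minus strand: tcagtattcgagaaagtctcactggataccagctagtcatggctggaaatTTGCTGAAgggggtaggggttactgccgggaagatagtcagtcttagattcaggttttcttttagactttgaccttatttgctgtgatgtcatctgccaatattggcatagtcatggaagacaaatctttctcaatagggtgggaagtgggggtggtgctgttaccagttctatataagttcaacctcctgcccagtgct
Alb, albumin, chr5:90460620-90460869, plus strand: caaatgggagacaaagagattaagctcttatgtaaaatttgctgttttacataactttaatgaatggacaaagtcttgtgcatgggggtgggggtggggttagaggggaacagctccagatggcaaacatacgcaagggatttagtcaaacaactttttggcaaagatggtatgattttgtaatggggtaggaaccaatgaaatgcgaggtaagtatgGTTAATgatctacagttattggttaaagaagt
Fabp1, fatty acid-binding protein, chr6:71199629-71199878, plus strand: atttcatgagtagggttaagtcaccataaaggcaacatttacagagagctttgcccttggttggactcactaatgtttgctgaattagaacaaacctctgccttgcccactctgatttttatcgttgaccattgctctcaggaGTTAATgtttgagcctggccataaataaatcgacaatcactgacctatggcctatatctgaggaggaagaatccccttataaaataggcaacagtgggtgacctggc
The STAT3-like motif stood in 4 of the 9 acute-phase promoters, beginning 234 bases upstream of the start in Fga, 162 in Fgb, 97 in Hamp and 51 in Itih4. It stood in 0 of the 8 secreted promoters and in 8.30% of all 32851 promoters of the same length. Of the 4 bile acid and lipid droplet members with a promoter, 1 held it (Slc10a1). The C/EBP-like motif was found in 4 of the 9 acute-phase and 6 of the 8 secreted promoters, against 10.8% of all promoters. The HNF1-like motif was found in 4 of the 8 secreted and 2 of the 9 acute-phase promoters, against 7.10% of all. None of the 3 motifs was found in the 3 Mup or the 6 pericentral promoters with a sequence. Nor was any found in the acute-phase promoters of Fgg, Itih3 and Serpina3n, which are not shown. Fga and Fgb also hold C/EBP-like and HNF1-like matches, and Alb and Fabp1 C/EBP-like ones, which are not marked. A match is a stretch of letters, not a bound site.

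The libraries held 78694038 UMIs over 8214 barcodes in dHep_IR, 59228905 over 7265 in FL_IR and 52858425 over 7393 in FL_control, and 7261, 6545 and 6458 cells of those libraries, in that order, passed the filters. Gsdmd had 36.9 UMIs per 1000000 (CPM) over all kept cells of dHep_IR, 7.21 in FL_IR and 36.4 in FL_control. In hepatocytes it had 1, 2 and 20 UMIs in the same order, too few to check the deletion, which a tag at the 3′ end would not show if another stretch of the gene was removed. The libraries shared barcodes. dHep_IR and FL_IR had 32 barcodes in common, dHep_IR and FL_control 60, and FL_IR and FL_control 10. In 13 of the 32 the dHep_IR copy held only 1.02% to 2.14% of the UMIs of the FL_IR copy, and in 45 of the 60 the FL_control copy held 1.11% to 2.37% of those of the dHep_IR copy, while the remaining pairs in these 2 comparisons of libraries lay between 4.91% and 98.7%. Barcodes with under 3% of the UMIs of their counterpart are called shallow copies here, a limit set after the values were seen, and what produced them was not tested.

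A barcode was taken as a hepatocyte when Alb, Apoa1, Apoa2, Ttr and Serpina1c together made up at least 3% of its UMIs, so the levels of these 5 rule genes describe the choice and are not findings. The rule found 8 hepatocytes in dHep_IR (0.110% of kept cells, exact Clopper-Pearson interval 0.0476 to 0.217%), 23 in FL_IR (0.351%, 0.223 to 0.527%) and 52 in FL_control (0.805%, 0.602 to 1.05%). In dHep_IR 4 of the 8 were shallow copies of FL_IR barcodes, and in FL_control 1 of the 52 was a shallow copy of a dHep_IR barcode. Without copies 4 hepatocytes remained in dHep_IR, 0.0552% of its cells (0.0150 to 0.141%), 23 in FL_IR and 51 in FL_control. The 4 own barcodes of dHep_IR held 14512 UMIs in all, 51.3% of them in the deepest one, and their rule-gene share lay between 3.403% and 4.19%, close to the threshold. Just outside it lay a cell at 1.10% in dHep_IR, one at 2.90% in FL_IR and one at 2.99% in FL_control.

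The copies carried the member profile of the library that held the deep barcode. Per 100 UMIs of the rule genes, the 4 copies in dHep_IR held 8.86 UMIs of Hpx and 0.286 of Orm2. The same barcodes in FL_IR held 8.93 and 0.217, whereas the 4 own barcodes of dHep_IR held 90.7 and 9.12. The copy in FL_control held 108 UMIs of Hpx per 100, and its counterpart in dHep_IR held 104, against 5.91 in the other FL_control hepatocytes. Values for dHep_IR are therefore given for all 8 barcodes and for its own 4. For FL_IR against FL_control, leaving out the 1 copy changed 0 of 31 member calls and moved no ratio by more than 1.15-fold.

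Hepatocytes summed to 18988 UMIs in dHep_IR (14512 without copies), 321180 in FL_IR and 624484 in FL_control. A single barcode held 31.9% of the FL_IR and 33.0% of the FL_control UMIs. Mitochondrial genes made up 5% or more of the UMIs in all 8 hepatocytes of dHep_IR, 6 of 23 in FL_IR and 8 of 52 in FL_control, and 0, 15 and 32 hepatocytes of those libraries had under 1% mitochondrial UMIs and no Malat1, a nuclear RNA. All 8 hepatocytes of dHep_IR, all 23 of FL_IR and 51 of the 52 of FL_control fell in 1 cluster, which held 5 of the 12 hepatocyte markers among its 10 leading genes. The 12 markers include the 5 rule genes, so this follows in part from the choice of barcodes. The cluster also held 19 barcodes of FL_IR and 53 of FL_control below the rule, and 0 of dHep_IR. Neutrophil markers were also present, with 7742 CPM in dHep_IR, 12476 in FL_IR and 1227 in FL_control hepatocytes summed over 11 markers. Endothelial markers (12 genes) summed to 895 CPM in dHep_IR, on 17 UMIs, 49.8 in FL_IR and 200.2 in FL_control hepatocytes, and Kupffer markers (10 genes) to 211 CPM, on 4 UMIs, 21.8 and 57.6. Monocyte markers stood at 1053, 1348 and 493 CPM, and T cell markers at 0, 0 and 3 UMIs. The part of RNA from these other cells in the differences described was not tested. With the hepatocytes of 5% or more mitochondrial UMIs alone, the median log2 ratio of the acute-phase members in FL_IR against FL_control was 1.52, in place of 1.87.

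**Figure D1:**
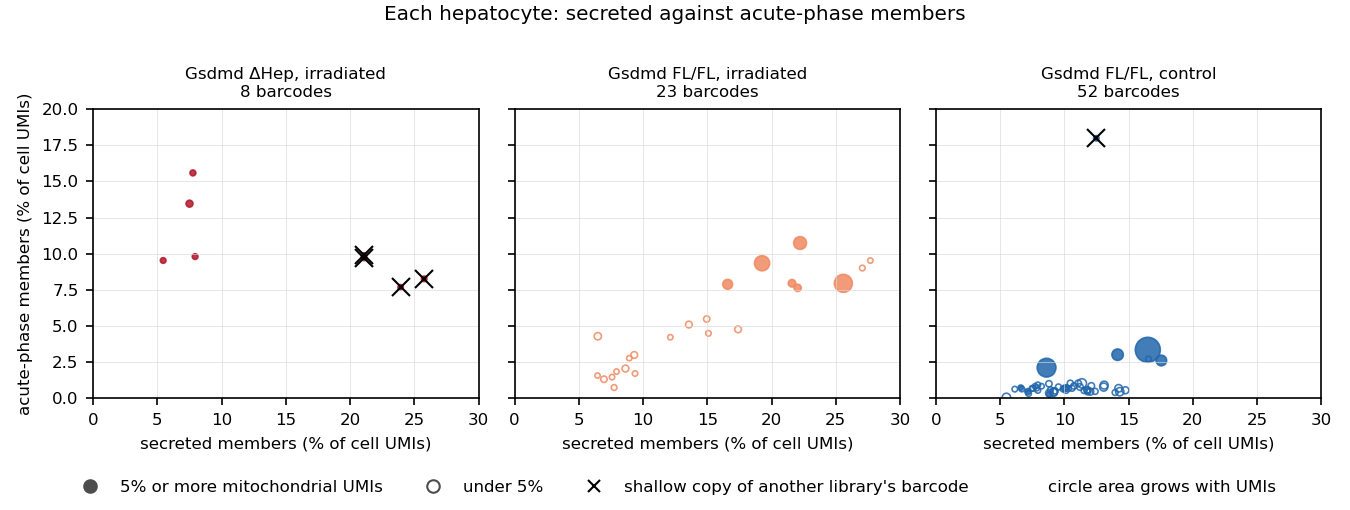
Share of each hepatocyte's UMIs in the 13 secreted members (horizontal axis, %) and in the 11 acute-phase members (vertical axis, %), 1 panel per library, with circle area growing with UMIs, filled circles for barcodes with 5% or more mitochondrial UMIs, and crosses for shallow copies. The 4 own barcodes of dHep_IR sit between 5.45% and 7.93% secreted and between 9.53% and 15.6% acute-phase, while its 4 copies sit at 21.1% to 25.8% secreted.

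Within single hepatocytes, the acute-phase members took 9.53% to 15.6% of the UMIs in the 4 own barcodes of dHep_IR. In FL_IR they took from 0.744% to 10.7%, with a median of 4.49%. In FL_control they took from 0.0582%, with a median of 0.683%, and the highest share, 17.98%, belonged to the shallow copy. The secreted members took 5.45% to 7.93% in the own barcodes of dHep_IR, 6.46% to 27.7% in FL_IR (median 13.6%) and 5.49% to 17.5% in FL_control (median 10.1%). For the acute-phase share, 2 of the 4 own barcodes of dHep_IR lay above the highest barcode of FL_IR. For the secreted share they lay at the low end of both other ranges, but that share holds the rule genes and moves with them. In the 9 hepatocytes of FL_IR whose rule-gene share was under 5%, like that of the 4 own barcodes of dHep_IR, the secreted members made up 7.79% of all UMIs (6.46% to 9.38% per barcode), against 7.35% in the 4. The acute-phase members made up 12.8% in the 4 own barcodes of dHep_IR, and 2.61% (0.744% to 4.29% per barcode) in those 9 of FL_IR. The 2 sets differ in mitochondrial share, at most 4.39% in the 9 and 6.81% to 24.1% in the 4. In the 6 hepatocytes of FL_IR with 5% or more mitochondrial UMIs the acute-phase members made up 8.80% (7.64% to 10.7% per barcode). The rule-gene share of those 6 was higher, 10.5% to 18.3%.

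Irradiated floxed hepatocytes (FL_IR against FL_control) carried more acute-phase RNA and less RNA of the Mup members, Fabp1 and Cyp3a11. A gene was called where its CPM differed at least 2-fold, the exact conditional interval of the ratio left out 1, and both libraries together had at least 20 UMIs. Of 40 members measured outside the rule, 15 were higher and 14 lower, beside 6.2% of all 4192 measured genes higher and 29.1% lower. All 11 acute-phase members were higher, with a median log2 ratio of 1.87, and all 4 Mup members were lower, with a median of -6.09. The median over all genes was -0.59.

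In dHep_IR hepatocytes (against FL_IR) 3 acute-phase members were higher, Orm2, Orm1 and Hpx, and Rbp4 and Apoc3 were among the lower ones. Of 34 members measured outside the rule with all 8 barcodes, 3 were higher and 5 lower (Rbp4, Apoc3, Ahsg, Mup20, Pck1), beside 1.77% and 3.4% of the 1472 genes measured. With the 4 own barcodes alone, the same 3 were higher and 9 lower, beside 2.27% and 4.46% of 1456 genes. The 8 calls were made again with the own barcodes, and Apoc1, Serpina1a, Itih3 and Cps1 were lower in addition. None of these calls was matched for rule-gene share. Against the 6 hepatocytes of FL_IR with 5% or more mitochondrial UMIs, all 8 barcodes gave 2 of the 32 measured outside the rule higher (Orm1, Orm2). The same 5 as with all 8 barcodes above were lower, beside 3.7% of 1081 genes in each direction. The deep counterparts of 3 of the copies are among these 6. By the own barcodes 3 were higher (Orm1, Orm2, Hpx) and 9 lower, for which the share over all genes was not computed. The mean of per-cell CPM, in which a deep barcode counts no more than a shallow one, gave 12 members higher and 8 lower with the rule genes counted. At a rule threshold of 5% or 10% the dHep_IR hepatocytes consisted of the 4 copies alone, and 0 members were higher and 0 lower. Scaling by TMM shifted this comparison by -1.05 on the log2 scale, which gave, with the rule genes counted, 1 member higher, 26 lower and an acute-phase median of -0.54 in place of 0.51.

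**Figure D2:**
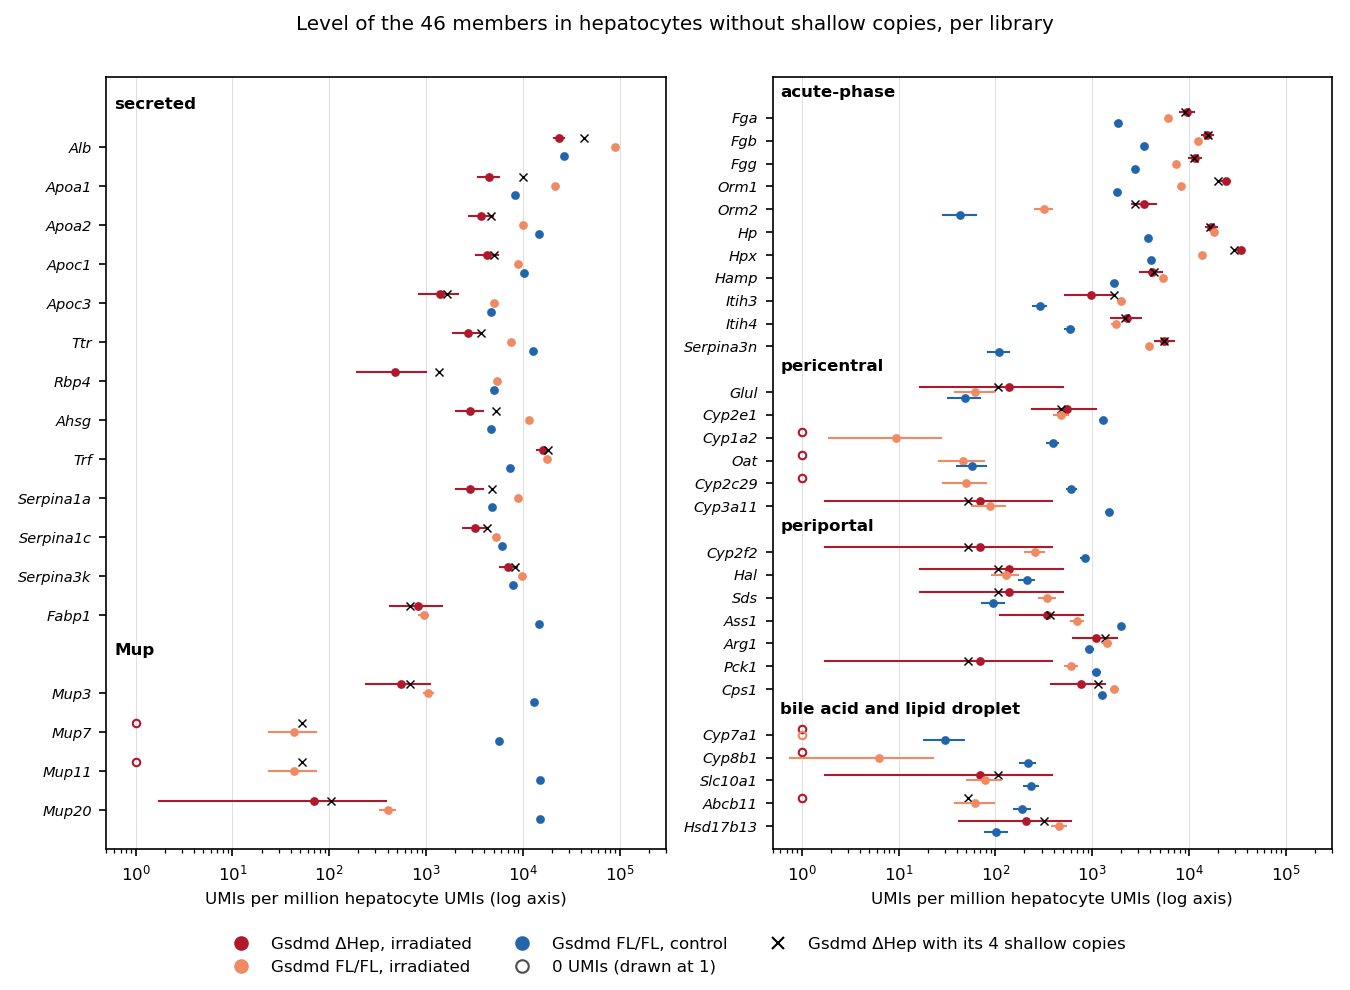
CPM of each of the 46 members in hepatocytes (log axis) without shallow copies, by library and member group, with bars for the exact Poisson interval, open circles for 0 UMIs, and crosses for dHep_IR with its 4 copies included. Orm2 stands at 3445 CPM in dHep_IR, 318 in FL_IR and 43.3 in FL_control, and Mup11 at 0, 43.6 and 14862.

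**Figure D3:**
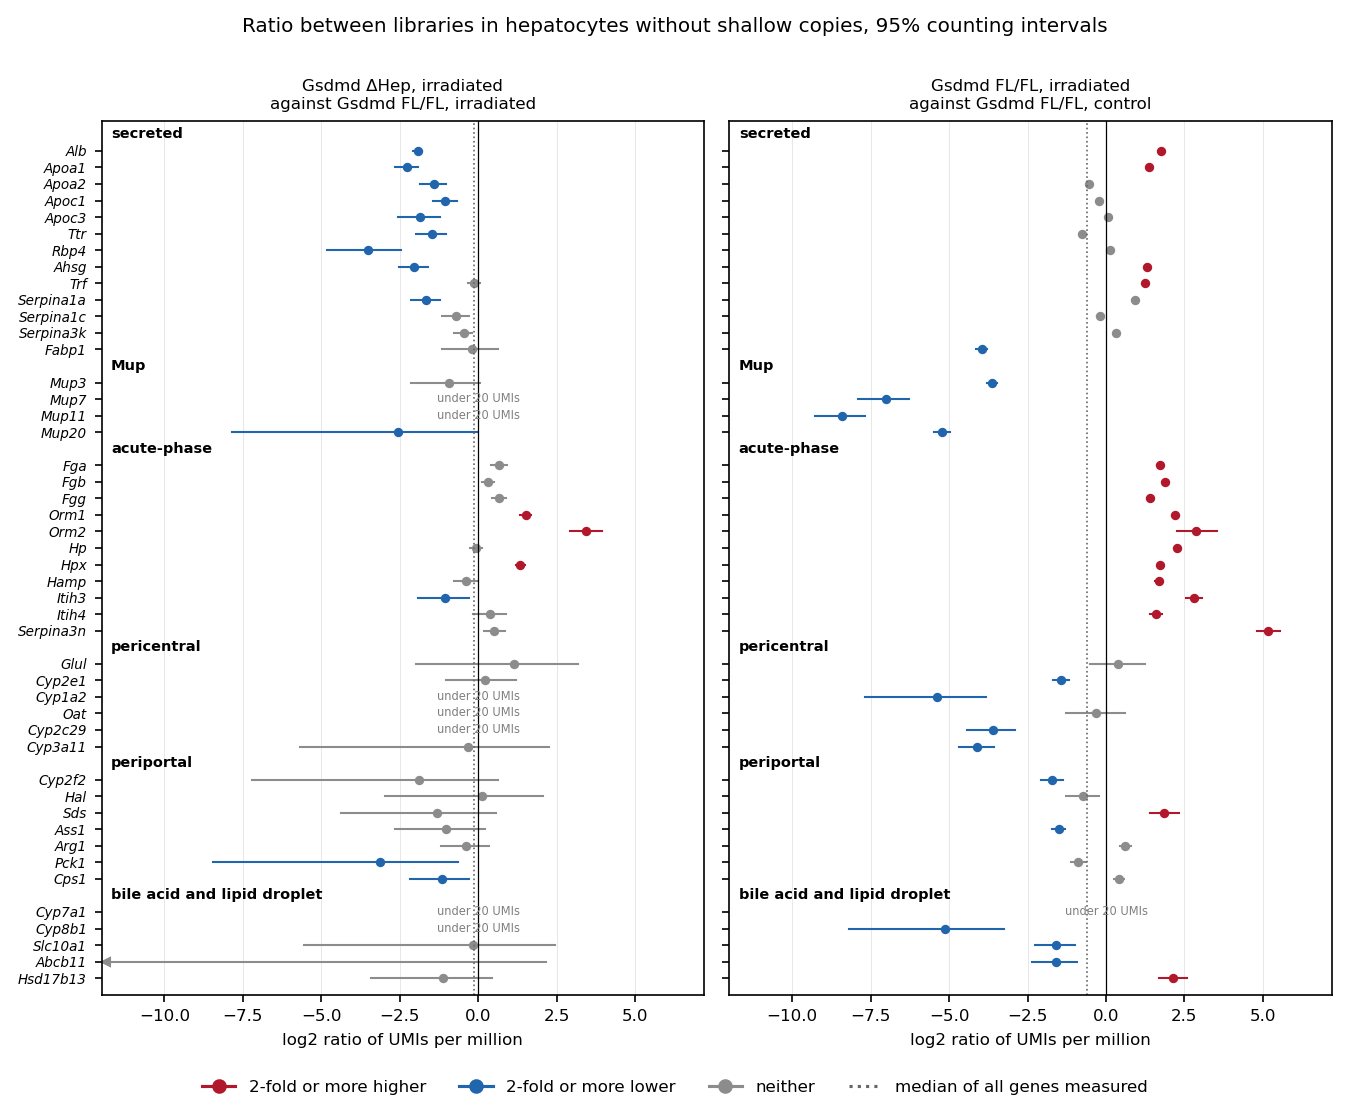
Log2 ratio of CPM between libraries for each member in hepatocytes without shallow copies (left, dHep_IR over FL_IR; right, FL_IR over FL_control), with the exact conditional interval, the calls in colour and the median of all measured genes dotted. On the right the 11 acute-phase members lie above 0 and the 4 Mup members below it; on the left Orm2, Orm1 and Hpx lie above.

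Among the secreted members, albumin (Alb), the main plasma protein, had 819 UMIs (43132 CPM) in dHep_IR, or 343 (23636 CPM) in its own barcodes, 28957 (90158 CPM) in FL_IR and 16780 (26870 CPM) in FL_control. As a sum it was highest in FL_IR, 3.36-fold above FL_control (3.29 to 3.42), and 2.09-fold lower in dHep_IR than in FL_IR, or 3.81-fold with the own barcodes. A single barcode held 49.3% of the Alb UMIs of FL_IR hepatocytes and one held 52.4% of those of FL_control. Read per barcode, Alb stood at 20942 to 27665 CPM in the own barcodes of dHep_IR, at a median of 21739 CPM (902 to 145472) in FL_IR and at a median of 11327 CPM in FL_control. The mean of per-cell CPM turned the log2 ratio of dHep_IR to FL_IR to 0.41 with all 8 barcodes. Of the other rule genes, Apoa1 (the main protein of high-density lipoprotein) had 9954 CPM in dHep_IR, 21499 in FL_IR and 8317 in FL_control. Apoa2, its partner, had 4687, 9973 and 14530 CPM in that order of libraries, and Ttr (transthyretin, the thyroxine carrier) 3687, 7454 and 12759. Serpina1c, an alpha-1-antitrypsin, had 4266, 5290 and 6051 CPM and passed the 2-fold mark in neither comparison. Apoa1, Apoa2 and Ttr were 2.02- to 2.16-fold lower in dHep_IR than in FL_IR by all 8 barcodes and 2.68- to 4.80-fold lower by the own 4.

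Rbp4, the retinol carrier, had 26 UMIs (1369 CPM) in dHep_IR, 7 of them (482 CPM) in the own barcodes, 1749 (5446 CPM) in FL_IR and 3131 (5014 CPM) in FL_control. It stood apart in dHep_IR only, 3.98-fold lower than in FL_IR (2.705 to 6.105) and 11.3-fold lower by the own barcodes (5.47 to 28.1). Apoc3, an inhibitor of lipoprotein lipase, had 31 UMIs (1633 CPM) in dHep_IR, 1602 (4988 CPM) in FL_IR and 2949 (4722 CPM) in FL_control, 3.06-fold lower in dHep_IR than in FL_IR. Transferrin (Trf), the iron carrier, had 345 UMIs (18169 CPM) in dHep_IR, 5664 (17635 CPM) in FL_IR and 4668 (7475 CPM) in FL_control. It was 2.36-fold higher in FL_IR than in FL_control and within 2-fold between dHep_IR and FL_IR, with 15987 CPM in the own barcodes of dHep_IR. Ahsg (fetuin-A) had 5319 CPM in dHep_IR, 11585 in FL_IR and 4668 in FL_control, and by the mean of per-cell CPM its log2 ratio of dHep_IR to FL_IR was 0.01. Fabp1, which carries fatty acids inside the hepatocyte, had 13 UMIs (685 CPM) in dHep_IR, 304 (947 CPM) in FL_IR and 9193 (14721 CPM) in FL_control. Both irradiated libraries were far below FL_control, 15.6-fold for FL_IR (13.9 to 17.5).

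Over the 8 secreted members outside the rule, dHep_IR had 0 higher and 3 lower than FL_IR (Apoc3, Rbp4, Ahsg) with a median log2 ratio of -0.85, or 5 lower with a median of -1.34 by the own barcodes. Of all genes 3.4% were lower in this comparison, or 4.46% by the own barcodes. These calls were not matched for rule-gene share, and the rule genes were 3.56-fold lower as CPM in the own barcodes than in FL_IR hepatocytes. In hepatocytes with a rule-gene share under 5%, all 13 secreted members made up 7.35% of the UMIs in dHep_IR and 7.79% in FL_IR. FL_IR had 2 higher than FL_control (Ahsg, Trf) and 1 lower (Fabp1), with a median of 0.22, beside 6.2% of all genes higher and 29.1% lower. Apoc1, which modulates lipoprotein metabolism, had 5003, 8846 and 10271 CPM in dHep_IR, FL_IR and FL_control. Serpina1a had 4845, 8942 and 4748 CPM in those libraries, and Serpina3k 8374, 9814 and 7837. The last 300 bases of the Serpina1a and Serpina1c transcripts are 95.7% identical, so the split of reads between the pair is uncertain.

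The Mup members, lipocalins that bind pheromones and are excreted in mouse urine, were lower in FL_IR than in FL_control, all 4 of them. Mup20 (darcin) had 2 UMIs (105 CPM) in dHep_IR, 129 (402 CPM) in FL_IR and 9339 (14955 CPM) in FL_control. Mup11 had 1 UMI (52.7 CPM) in dHep_IR, in a copy, 14 (43.6 CPM) in FL_IR and 9266 (14838 CPM) in FL_control. Mup7 had 1 UMI in dHep_IR, also in a copy, 14 in FL_IR and 3519 (5635 CPM) in FL_control. Mup3 had 13 UMIs (685 CPM) in dHep_IR, 338 (1052 CPM) in FL_IR and 8144 (13041 CPM) in FL_control. FL_IR was lower than FL_control by 340-fold for Mup11 (203 to 623), 129-fold for Mup7, 37.2-fold for Mup20 and 12.4-fold for Mup3. Between dHep_IR and FL_IR only Mup3 and Mup20 had enough UMIs, and Mup20 was 3.81-fold lower on 2 UMIs (1.03 to 31.8). Mup7 and Mup11 share 98.3% of their last 300 transcript bases and the other pairs compared 85.9% to 89.4%, so the split of reads among them is uncertain.

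Of the acute-phase members, Orm1 and Orm2 (alpha-1-acid glycoproteins), Hpx (hemopexin, the haem scavenger) and Hp (haptoglobin, which binds free haemoglobin) are plasma carriers. Orm2 had 52 UMIs (2739 CPM) in dHep_IR, 50 of them (3445 CPM) in the own barcodes, 102 (318 CPM) in FL_IR and 31 (49.6 CPM) in FL_control. The 3 libraries were ordered dHep_IR, FL_IR, FL_control, with dHep_IR 8.62-fold above FL_IR (6.05 to 12.2), or 10.8-fold by the own barcodes (7.58 to 15.4), and FL_IR 6.40-fold above FL_control (4.24 to 9.90), or a log2 ratio of 0.40 by the mean of per-cell CPM. Orm1 had 377 UMIs (19855 CPM) in dHep_IR, 2682 (8350 CPM) in FL_IR and 1152 (1845 CPM) in FL_control. It was 2.38-fold higher in dHep_IR than in FL_IR (2.13 to 2.65), and 2.86-fold by the own barcodes. Orm1 and Orm2 are 97.7% identical over their last 300 bases, so reads of one may be counted for the other.

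Hpx had 559 UMIs (29440 CPM) in dHep_IR, 497 of them (34247 CPM) in the own barcodes, 4329 (13478 CPM) in FL_IR and 2589 (4146 CPM) in FL_control. It was 2.18-fold higher in dHep_IR than in FL_IR (1.996 to 2.39), 2.54-fold by the own barcodes, and 3.25-fold higher in FL_IR than in FL_control. Against the FL_IR hepatocytes with 5% or more mitochondrial UMIs it was 1.92-fold higher (1.76 to 2.10), short of 2-fold, and 2.24-fold by the own barcodes (2.03 to 2.46). The deepest own barcode of dHep_IR held 56.3% of the Hpx, 53.2% of the Orm1 and 54.0% of the Orm2 UMIs of those 4 barcodes, about its share of all UMIs. Hp had 316 UMIs (16642 CPM) in dHep_IR, 5770 (17965 CPM) in FL_IR and 2375 (3803 CPM) in FL_control, within 2-fold between dHep_IR and FL_IR and 4.72-fold higher in FL_IR than in FL_control.

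Serpina3n, a protease inhibitor, had the highest ratio of any member between FL_IR and FL_control, 32.5-fold (25.7 to 41.6). It had 105 UMIs (5530 CPM) in dHep_IR, 1253 (3901 CPM) in FL_IR and 75 (120 CPM) in FL_control. Itih3, a heavy chain that binds hyaluronan, had 32 UMIs (1685 CPM) in dHep_IR, 642 (1999 CPM) in FL_IR and 183 (293 CPM) in FL_control, 6.82-fold higher in FL_IR than in FL_control. In the own barcodes of dHep_IR Itih3 kept 14 UMIs (965 CPM) and was 2.07-fold lower than in FL_IR (1.23 to 3.81). Itih4 had 2159 CPM in dHep_IR, 1756 in FL_IR and 594 in FL_control. The fibrinogen chains, which form the clot, went together: Fgb had 302 UMIs (15905 CPM) in dHep_IR, 4024 (12529 CPM) in FL_IR and 2146 (3436 CPM) in FL_control. Fga had 9111, 6050 and 1859 CPM and Fgg 11376, 7301 and 2788 CPM in those libraries. The 3 chains were 2.62- to 3.65-fold higher in FL_IR than in FL_control and did not reach 2-fold between dHep_IR and FL_IR. Hamp, the iron hormone, had 82 UMIs (4319 CPM) in dHep_IR, 1733 (5396 CPM) in FL_IR and 1051 (1683 CPM) in FL_control, 3.21-fold higher in FL_IR than in FL_control.

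Between dHep_IR and FL_IR the median log2 ratio of the 11 acute-phase members was 0.51, or 0.53 by the own barcodes, beside -0.12 and -0.13 over all genes. With genes at 0 UMIs set to the floor of 3 counts, the medians over all genes were 0.24 and 0.50, and the acute-phase medians did not change. The distance from all genes therefore depended on how a count of 0 was treated. Against the 6 hepatocytes of FL_IR with 5% or more mitochondrial UMIs, the acute-phase median was lower. It was 0.29 with all 8 barcodes, beside 0.02 over all genes (0.17 with the floor), and 0.31 by the own barcodes. Raising the mitochondrial limit from 25% to 50% brought the own hepatocytes of dHep_IR to 7 with 86441 UMIs. In those 7, against 31 in FL_IR, Serpina3n (2.05-fold) and Itih4 (2.27-fold) were higher as well, 5 of the 11 in all with a median of 0.99. Of all 2595 genes measured 64 were higher and 388 lower, with a median of -0.58 (-0.42 with the floor).

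Pericentral enzymes were lower in FL_IR than in FL_control in 4 of 6 cases, with a median log2 ratio of -2.50. Over all genes measured 29.1% were lower, with a median of -0.59. Cyp1a2, which oxidizes drugs and caffeine, had 0 UMIs in dHep_IR, 3 (9.34 CPM) in FL_IR and 244 (391 CPM) in FL_control. Its ratio was 41.8-fold lower in FL_IR than in FL_control (14.1 to 204). Cyp3a11, a broad drug oxidase, had 1 UMI in dHep_IR, 28 (87.2 CPM) in FL_IR and 932 (1492 CPM) in FL_control, 17.1-fold lower in FL_IR. Cyp2c29 had 0 UMIs in dHep_IR, 16 (49.8 CPM) in FL_IR and 381 (610 CPM) in FL_control, 12.2-fold lower in FL_IR. Cyp2e1, which oxidizes ethanol, had 9 UMIs (474 CPM) in dHep_IR, 154 (479 CPM) in FL_IR and 810 (1297 CPM) in FL_control, and was 2.71-fold lower in FL_IR. These 4 members lean on few barcodes. In FL_control a single barcode held 60.6% of the Cyp2c29, 51.0% of the Cyp2e1, 48.8% of the Cyp1a2 and 37.1% of the Cyp3a11 UMIs. In FL_IR one held 80.5% of the Cyp2e1 UMIs. A count of 0 of 18988 UMIs in dHep_IR allows up to 158 CPM at 3 counts, or 194 by the exact Poisson limit, and 0 of the 14512 own UMIs up to 207, or 254. At a rule threshold of 10%, which left 8 hepatocytes in FL_IR and 2 in FL_control, the log2 ratios of Cyp2e1 and Cyp2c29 turned to 5.09 and 1.97, while Cyp3a11 kept its call. The other 2 were not called: Glul (glutamine synthetase) had 2, 20 and 30 UMIs, and Oat (ornithine aminotransferase) 0, 15 and 36 UMIs, in dHep_IR, FL_IR and FL_control.

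Periportal members did not go one way. Cyp2f2, a P450 enzyme of the portal zone, had 1 UMI in dHep_IR, 82 (255 CPM) in FL_IR and 521 (834 CPM) in FL_control, 3.27-fold lower in FL_IR than in FL_control. A single barcode held 80.8% of the Cyp2f2 UMIs of FL_control, where 13 of 52 hepatocytes had any. Ass1, which makes argininosuccinate in the urea cycle, had 7 UMIs (369 CPM) in dHep_IR, 224 (697 CPM) in FL_IR and 1237 (1981 CPM) in FL_control, 2.84-fold lower in FL_IR. Sds, which degrades serine, went the other way, with 2 UMIs in dHep_IR, 110 (342 CPM) in FL_IR and 59 (94.5 CPM) in FL_control, 3.62-fold higher in FL_IR. Cps1 and Arg1, the first and last steps of the urea cycle, had 1688 and 1429 CPM in FL_IR and 1271 and 930 CPM in FL_control, within 2-fold. In dHep_IR they had 22 and 26 UMIs, and Cps1 was 2.23-fold lower than in FL_IR by the 11 UMIs of the own barcodes. Pck1, the entry to gluconeogenesis, had 1 UMI (52.7 CPM) in dHep_IR, 193 (601 CPM) in FL_IR and 692 (1108 CPM) in FL_control, 11.4-fold lower in dHep_IR than in FL_IR but with an interval of 2.02 to 453. Hal, which degrades histidine, had 2, 41 and 132 UMIs in dHep_IR, FL_IR and FL_control.

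Of the bile acid and lipid droplet members, Cyp8b1, the sterol 12-alpha-hydroxylase, had 0 UMIs in dHep_IR, 2 (6.23 CPM) in FL_IR and 135 (216 CPM) in FL_control, 34.7-fold lower in FL_IR than in FL_control (9.43 to 290). Slc10a1, the bile acid importer, had 2, 25 and 147 UMIs in dHep_IR, FL_IR and FL_control, and Abcb11, the bile salt export pump, 1, 20 and 118. Both were about 3-fold lower in FL_IR than in FL_control (3.02 and 3.03). Cyp7a1, the rate-limiting enzyme of bile acid synthesis, had 0 UMIs in both irradiated libraries and 19 (30.4 CPM) in FL_control, under the 20 UMIs required. Hsd17b13, a lipid droplet enzyme, was 4.41-fold higher in FL_IR, with 6 UMIs (316 CPM) in dHep_IR, 145 (451 CPM) in FL_IR and 64 (102 CPM) in FL_control.

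Further hepatocyte genes from lists of the same roles were read in the same way. Of 18 other acute-phase genes measured, 15 were higher and 0 lower in FL_IR than in FL_control, beside 6.2% of all genes higher and 29.1% lower. Among the 15 were the metallothioneins Mt2 and Mt1, metal-binding proteins, and Lcn2, which sequesters bacterial iron carriers. Lcn2 and Mt2 rested partly on the copy in FL_control: their ratios were 75.2 and 145 with it and 150 and 223 without it. Neutrophil markers were also higher in FL_IR than in FL_control hepatocytes, 12476 against 1227 CPM. The part of neutrophil RNA in the ratios of Lcn2 and the other genes listed here was not tested. Of the same 18 genes 4 were higher in dHep_IR than in FL_IR by the own barcodes (Saa2, Saa1, Lcn2 and Apcs) and 0 lower. Of all genes 2.27% were higher and 4.46% lower there. Saa2, a serum amyloid A of high-density lipoprotein, had 797 UMIs (54920 CPM) in the own barcodes of dHep_IR, 756 (2354 CPM) in FL_IR and 524 (840 CPM) in the FL_control hepatocytes without the copy. Its ratio of dHep_IR to FL_IR was 23.3 (21.1 to 25.8), and that of Saa1 was 10.2 (9.29 to 11.1), against 18.03 and 7.95 with the copies included. Beside the 29.1% of all genes that were lower and the 6.2% higher in FL_IR than in FL_control, the remaining lists of that comparison read as follows. Of 8 other pericentral genes, 5 were lower and 0 higher in FL_IR than in FL_control, among them Aldh1a1 and Rgn (regucalcin). Of 12 other bile acid and transport genes 4 were lower (Cyp7b1, Slco1a1, Slco1b2, Nr0b2) and Slc10a2, a bile acid importer of the bile duct and gut, was higher. Of 14 other periportal genes 5 were lower, among them G6pc, which releases glucose (29.3-fold), and 2 higher, among them Ctsc (cathepsin C, 28.5-fold), and of 10 liver transcription factors 3 were lower (Cebpa, Ppara, Onecut1) and 0 higher. Of 19 other secreted genes 4 were lower, all of them Mup genes, and 4 higher. Of 15 other secreted genes, 6 were lower and 0 higher in dHep_IR than in FL_IR by the own barcodes, beside 4.46% and 2.27% of all genes. Among the 6 were Apob and Serpinc1 (antithrombin). Whether these genes move with the rule-gene share, which differed between the 2 libraries, was not tested.

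Outside hepatocytes, the members were followed in cell classes, each named from its markers with the ending -like. Of the rule-gene UMIs, 14.4% lay in hepatocytes in dHep_IR (6.89% without copies), 68.8% in FL_IR and 71.8% in FL_control. Cholangiocyte-like cells held another 38.1% in dHep_IR, of which 91.0% was Ttr, 3.09% in FL_IR and 3.06% in FL_control. Leaving that class out, the hepatocytes held 23.3% in dHep_IR (11.8% without copies), 71.0% in FL_IR and 74.0% in FL_control. For Alb alone the share was 22.3% in dHep_IR, or 10.7% without copies (9.68 to 11.9%), 71.9% in FL_IR and 73.6% in FL_control. The Alb share depended on the mitochondrial limit. At 50% in place of 25%, without copies, 47.8% of the Alb UMIs lay in hepatocytes in dHep_IR (3235 UMIs, 2732 of them in 1 barcode), 81.4% in FL_IR and 73.5% in FL_control. Fewer hepatocytes and less RNA per hepatocyte cannot be told apart in this stray RNA. T-like cells, which do not make these proteins, held 70.8 CPM of the 5 rule genes in dHep_IR, 341 in FL_IR and 237 in FL_control. Endothelial-like cells held 64.0, 333 and 227 CPM in those libraries, Kupffer-like cells 125, 585 and 207, and monocyte-like cells 33.6, 190 and 180. In these 4 classes dHep_IR was lowest, and FL_IR was highest in all but the monocyte-like cells, where its interval (179 to 202) overlapped that of FL_control (158 to 203). In neutrophil-like cells it was dHep_IR 36.7, FL_IR 217 and FL_control 416 CPM, and the FL_control class held fewer UMIs per cell (median 3499, against 13266.5 in dHep_IR and 9852 in FL_IR). Per cell, neutrophil-like cells held 0.496 rule-gene UMIs in dHep_IR, 2.32 in FL_IR and 1.54 in FL_control.

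For several members the stray RNA of each library had a composition close to that of its own hepatocytes. Per 100 rule-gene UMIs, dHep_IR held 90.7 UMIs of Hpx in its own hepatocytes, 89.4 in T-like, 101 in neutrophil-like and 88.3 in endothelial-like cells. FL_IR held 10.0 in hepatocytes, and 12.1, 13.9 and 12.5 in those 3 classes. FL_control held 5.91 in hepatocytes, and 6.33, 5.15 and 5.28 in the classes. The 3 libraries did not overlap in any of these cell groups, and with its copies included the dHep_IR hepatocytes stood at 44.8. Relative to the rule genes, 98.1% or more of all genes measured in each of the 3 classes were also at least 2-fold higher in dHep_IR than in FL_IR. In hepatocytes without copies 33.9% of 1456 genes were. That share was not computed for FL_IR against FL_control. Orm2 stood at 9.12 per 100 in the own hepatocytes of dHep_IR, 12.4 in T-like, 9.91 in neutrophil-like and 8.26 in endothelial-like cells. In FL_IR Orm2 stood at 0.236 in hepatocytes and at most 0.228 in the 3 classes, and in FL_control at 0.0632 and at most 0.143.

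The same held for members that were low after irradiation. Mup11 had 0 UMIs per 100 in the own hepatocytes of dHep_IR and at most 0.109 in the 3 classes, against 0.0324 and at most 0.0922 in FL_IR. In FL_control it had 21.7 in hepatocytes and 20.04 to 23.0 in the classes. Fabp1 had 2.19 in the own hepatocytes of dHep_IR and 0.871 to 1.94 in the classes, 0.704 and 0.830 to 1.61 in FL_IR, and 21.5 and 23.3 to 26.8 in FL_control. These are compositions within a library, and between dHep_IR and FL_IR they also carry the lower rule genes of dHep_IR, 4.82-fold lower in T-like, 5.91-fold in neutrophil-like and 5.198-fold in endothelial-like cells as CPM. Relative to the rule genes 98.1% of the 7591 genes measured in T-like cells, 98.8% of 10113 in neutrophil-like and 98.7% of 12088 in endothelial-like cells were at least 2-fold higher in dHep_IR, so a higher ratio does not set a member apart. As CPM, 0 of 7 acute-phase members measured were called higher in dHep_IR than in FL_IR in T-like cells, 2 of 11 in neutrophil-like and 2 of 11 in endothelial-like cells, beside 4.19%, 3.83% and 1.37% of all genes. Hpx in T-like cells had 63.3 CPM (101 UMIs) in dHep_IR, 41.3 (30 UMIs) in FL_IR and 15.01 (63 UMIs) in FL_control.

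**Figure D4:**
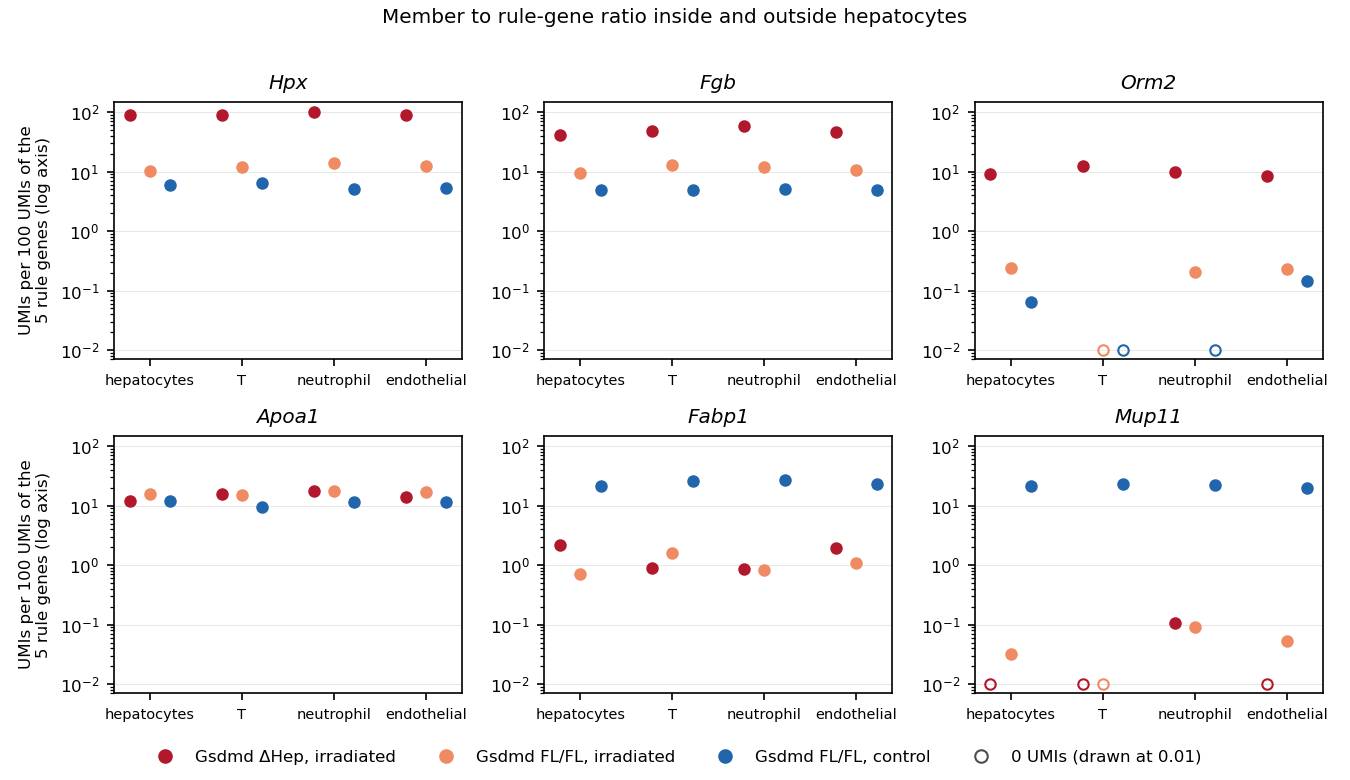
UMIs of 6 members per 100 UMIs of the 5 rule genes (log axis) in hepatocytes and in T-like, neutrophil-like and endothelial-like cells of each library, without shallow copies, with open circles for 0. Hpx stays between 88.3 and 101 in dHep_IR, 10.0 and 13.9 in FL_IR and 5.15 and 6.33 in FL_control, whichever cells are read. Relative to the rule genes, 98.1% or more of all genes measured in each class were at least 2-fold higher in dHep_IR than in FL_IR, and 33.9% in hepatocytes.

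Not every member outside hepatocytes followed that composition. A member was called above it in a class of at least 50 cells where its ratio to the rule genes was at least 3-fold that in the hepatocytes of the same library, with the interval leaving out 1 and at least 10 UMIs. Without copies this was so for 39 of 322 pairs of member and class in dHep_IR, 28 of 230 in FL_IR and 30 of 368 in FL_control. Over all genes it was so for 40.1%, 78.9% and 80.7% of pairs in those libraries. A set of 30 members, among them Apoa1, Hpx, Fga, Fgb, Fgg, Orm2 and Hamp, was above it in no library and class. The other 16 were above it at least once. For some of the 30 the call was out of reach. Alb, itself a rule gene, made up 39.2 to 67.1 of 100 rule-gene UMIs in hepatocytes with copies included, so 3-fold was impossible. Mup11 had 3 UMIs in all kept cells of dHep_IR, under the 10 required, and Cyp7a1 had 0 in both irradiated libraries. With copies included, 27 members were never above the hepatocyte composition and 19 at least once, beside 49.2%, 78.9% and 80.9% of pairs over all genes.

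Hp was carried by neutrophil-like cells, with 2474 CPM in dHep_IR, 2445 in FL_IR and 1739 in FL_control. A UMI of it was found in 1844 of 1850 neutrophil-like cells of dHep_IR at a median of 13266.5 UMIs per cell, against 76 of 208 T-like cells at a median of 6069.5. Monocyte-like cells held 1595, 1529 and 572 CPM of Hp in dHep_IR, FL_IR and FL_control. Apoc1 was carried by Kupffer-like cells, with 2693 CPM in dHep_IR, 5256 in FL_IR and 3677 in FL_control, and Trf too, with 732, 992 and 1212 CPM. Apoc1 in monocyte-like cells had 30.3 CPM in dHep_IR, 119 in FL_IR and 67.2 in FL_control. Monocyte-like cells held 214 CPM of Trf in dHep_IR, 232 in FL_IR and 161 in FL_control.

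In endothelial-like cells Glul had 1147 CPM in dHep_IR, 949 in FL_IR and 383 in FL_control, above its level in hepatocytes of all 3 libraries. Serpina3n had 186 CPM there in dHep_IR (3439 UMIs), 66.6 in FL_IR (1141 UMIs) and 0.790 in FL_control (17 UMIs), in the same order as in hepatocytes. The class drew on different clusters in the 3 libraries, led by cluster 1 in dHep_IR (45.5% of the class), cluster 4 in FL_IR (62.3%) and cluster 22 in FL_control (95.4%). Ass1 had 92.1 CPM in T-like cells of dHep_IR, 86.7 in FL_IR and 57.7 in FL_control, and 37.3, 58.6 and 11.4 CPM in endothelial-like cells. In neutrophil-like cells Orm1 had 183 CPM in dHep_IR, 79.6 in FL_IR and 18.5 in FL_control, and that class was led by cluster 12 in dHep_IR (52.3%), 11 in FL_IR (45.2%) and 25 in FL_control (99.1%). Monocyte-like cells were led by cluster 8 in dHep_IR (52.2%), 6 in FL_IR (86.2%) and 8 in FL_control (100%). Oat was above the hepatocyte composition in all classes of at least 50 cells, at 18.5 to 72.5 CPM in dHep_IR, 19.0 to 75.8 in FL_IR and 32.5 to 68.5 in FL_control.

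Cholangiocyte-like cells, which line the bile ducts, numbered 82 in dHep_IR, 48 in FL_IR and 31 in FL_control without copies, so the last 2 were under the 50 cells required. Mup20 had 1780 CPM in them in dHep_IR, 2927 in FL_IR and 524 in FL_control, higher than in the hepatocytes of both irradiated libraries and lower than in those of FL_control. Ttr had 1177 CPM there in dHep_IR, 1138 in FL_IR and 2004 in FL_control. Fabp1 had 142 CPM in dHep_IR, 143 in FL_IR (92.4% of it in 1 cell) and 20.6 in FL_control, and Cyp2f2 had 94.99, 96.7 and 363 CPM. Alb in the same cells was 105 CPM in dHep_IR. Its ratio to the rule genes was below the hepatocyte composition, but 91.0% of the rule-gene UMIs in these cells were Ttr, so that ratio does not show little Alb.

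The remaining calls rested on few UMIs or single libraries. Arg1 in Kupffer-like cells had 3.24 CPM in dHep_IR, 4.16 in FL_IR and 85.4 in FL_control, and in monocyte-like cells it had 8.09 CPM in dHep_IR, with 49.6% of its UMIs in 1 cell. Hal in monocyte-like cells had 12.0 CPM in dHep_IR, 16.8 in FL_IR and 1.46 in FL_control. Mup20 was also above the composition in endothelial-like cells of the irradiated libraries, with 1.35 CPM in dHep_IR and 3.09 in FL_IR, against 71.8 CPM in FL_control, where it was not. It had 37 UMIs in neutrophil-like and 18 in monocyte-like cells of dHep_IR. Itih3 in Kupffer-like cells had 11.5 CPM in dHep_IR, 11.2 in FL_IR and 1.13 in FL_control. Slc10a1 in neutrophil-like cells had 14 UMIs in dHep_IR, 26 in FL_IR and 4 in FL_control.

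**Figure D5:**
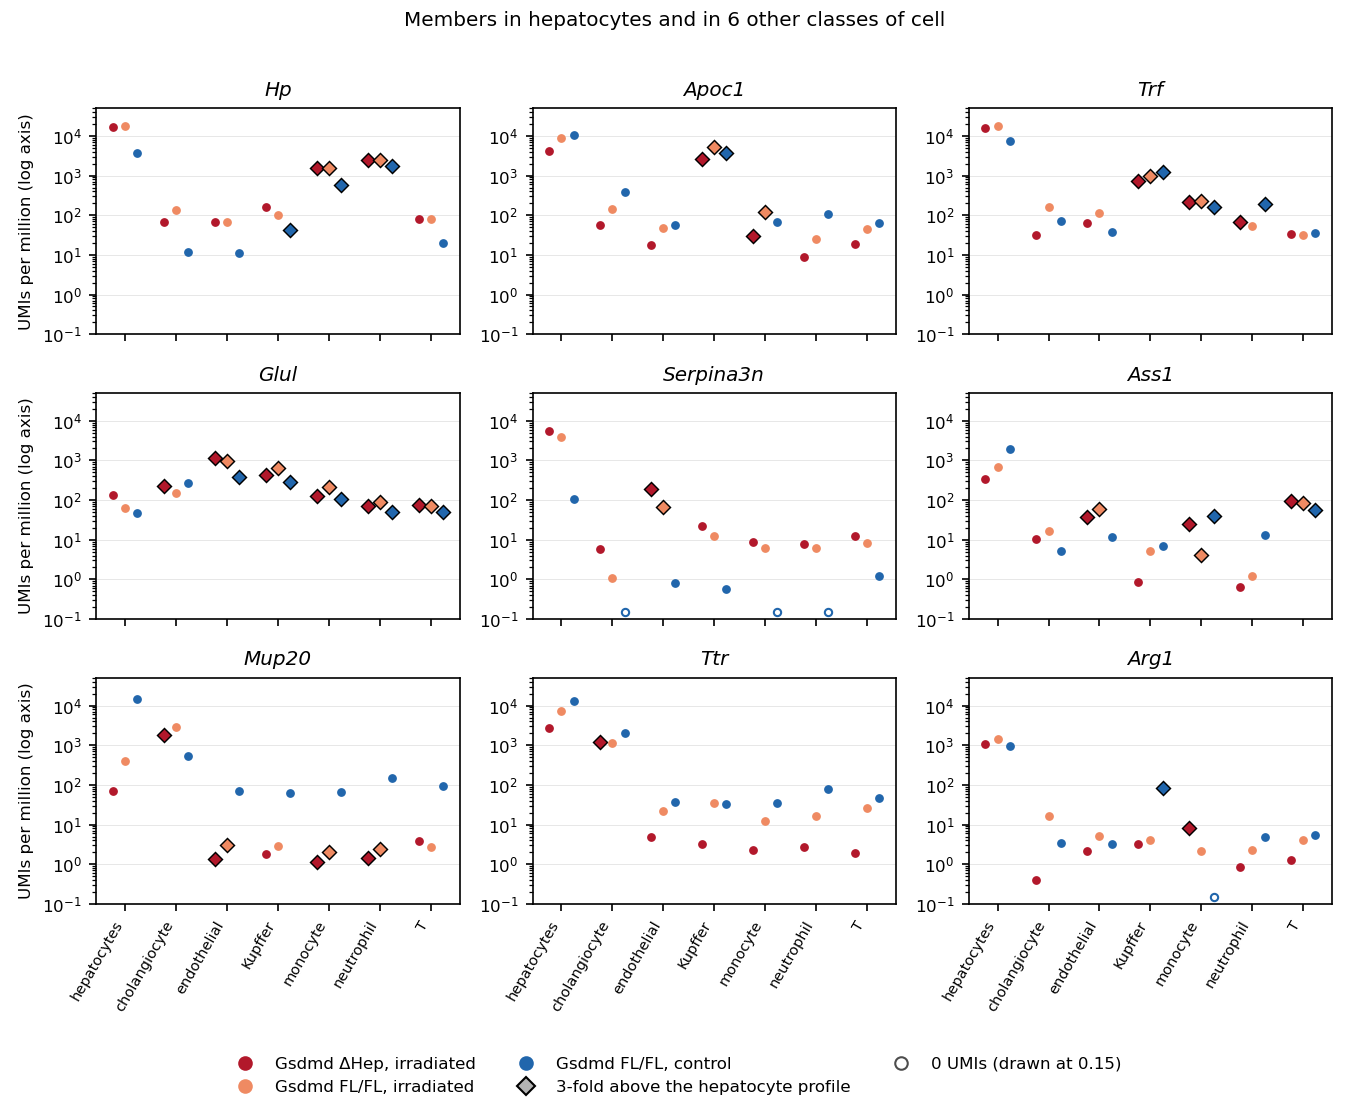
CPM of 9 members (log axis) in hepatocytes and in 6 other classes of cells of each library, without shallow copies, with diamonds where the member exceeds the hepatocyte composition at least 3-fold and open circles for 0. Hp is marked in neutrophil-like and monocyte-like cells and Apoc1 and Trf in Kupffer-like cells of all 3 libraries, and Serpina3n in endothelial-like cells of dHep_IR and FL_IR.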

How the data were processed

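Raw UMI counts per gene and barcode were deposited by the authors, 1 matrix per library, as whole numbers with no normalization, and free RNA had not been removed. Per the labels' protocols the libraries were made with 10x Chromium 3′ kits. The submitters' processing notes name CASAVA 1.8, Cell Ranger 6.1.1, Seurat 4.0.3 and the mm10 build; no annotation version is named in the sources used here. Counting used 3′ tags, so near-identical transcript ends may exchange reads.

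From these counts, barcodes with at least 500 UMIs, 250 genes and at most 25% mitochondrial UMIs were kept. Doublets were removed per library with Scrublet in scanpy 1.11.5 at an expected rate of 6%, which marked 291 cells in dHep_IR, 235 in FL_IR and 160 in FL_control. All libraries were clustered together (2000 variable genes, 30 components, 15 neighbours, Leiden at resolution 1, igraph 0.11.9), giving 28 clusters. A cluster was named X-like from marker lists, with at least 3 markers detected. Classes drew on different clusters in the 3 libraries, so values within a class may reflect that.

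Member counts were summed over hepatocytes or a class and divided by all UMIs of those cells (CPM, per 1000000 UMIs). Intervals came from the exact Poisson (sums), Clopper-Pearson (shares) and exact conditional (ratios) methods in scipy 1.17.1, and 0.5 counts were added on each side before taking log2 ratios. A count of 0 was given a floor of 3 counts. Depth was 14512 to 624484 hepatocyte UMIs per library, so small members of dHep_IR are imprecise. TMM factors came from edgeR 4.0.16. The intervals and the 2-fold rule were tried on simulated Poisson counts with no variation between barcodes. That trial covers counting error only and cannot show how the calls behave where single barcodes hold much of the UMIs. The members, gene lists, markers and comparisons were chosen with earlier results of these data known. Values are named for the rule genes, all Mup members, the 2 highest and 2 lowest ratios of each member group, every member above the hepatocyte composition, and up to 3 genes of each further list. The other genes named, and the limit for shallow copies, were chosen after their values were seen. In all, 24 alternative settings were tried, 20 planned and 4 added after seeing the data. Counts without the rule genes, hepatocyte shares at the 50% limit or without cholangiocyte-like cells, and the relative levels of all genes were also added after seeing the data.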

Additional observations from a re-analysis of the deposited data

Results flagged for a closer look

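Ass1 differed in direction between cell groups in FL_IR against FL_control, with a log2 ratio of -1.50 in hepatocytes and 2.36 in endothelial-like cells. Trf did so too, with 1.24 in hepatocytes and -1.83 in neutrophil-like cells. With 1 library per group neither difference was tested. Barcodes left out by the filters that still met the hepatocyte rule numbered 7 in dHep_IR and 13 in FL_IR, above the 4 of FL_control. Of the 7 in dHep_IR, 4 were shallow copies, and the deepest of the remaining 3 held 67919 UMIs with 27.4% from mitochondrial genes.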

How the results depend on the processing

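With 1 library per group, every direction rests on single libraries, and the 4 own hepatocytes of dHep_IR limit its values most. No paired analysis was possible because each group has 1 library. Counts and medians here include the rule genes, whose levels chose the cells. Over the 16 settings that bear on single members, 13 of the 31 calls of FL_IR against FL_control were kept in all (Cyp3a11, Fabp1, Fgb, Hp, Hpx, Itih3, Mup3, Mup7, Mup11, Mup20, Orm1, Sds and Serpina3n), and 0 of the 12 calls of dHep_IR against FL_IR. Unless a cause is given, the cause was not tested. In the values below, medians and single members are log2 ratios in hepatocytes, A stands for dHep_IR against FL_IR and B for FL_IR against FL_control.

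As reported, the medians were -1.01 (A) and 0.12 (B) for secreted, 0.51 and 1.87 for acute-phase and -1.09 and -6.09 for Mup members, and -2.50 and -0.72 (B) for pericentral and periportal members. The rule genes stood at -2.38 (A) and 0.55 (B) in endothelial-like and -2.56 (A) and -0.94 (B) in neutrophil-like cells. Pairs above the hepatocyte composition numbered 55, 28 and 34 in dHep_IR, FL_IR and FL_control with copies included.

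At a 1% threshold there were 42 hepatocytes in FL_IR and 101 in FL_control, 4 members lower in A, acute-phase medians of 0.89 (A) and 1.72 (B) and a secreted median of 0.02 (B). At 5% there were 4, 14 and 13 hepatocytes in dHep_IR, FL_IR and FL_control. The 4 are the shallow copies, and 3 of their FL_IR counterparts are among the FL_IR hepatocytes, so A has nothing of dHep_IR's own barcodes. A then gave 0 higher and 0 lower, 0.10 (secreted) and 0.18 (acute-phase), with Alb 0.10, Apoa1 0.24, Ahsg 0.11, Orm1 -0.36 and Hpx -0.05 and 103 pairs above in dHep_IR; B gave -0.03 (secreted) and 1.60 (acute-phase). At 10% there were 4, 8 and 2 hepatocytes. A gave 0 and 0, 0.05 and 0.09, with Alb 0.01, Apoa1 0.26, Ttr 0.05, Ahsg 0.05, Orm1 -0.29 and Hpx -0.13 and 103 pairs; B gave 1.53 (acute-phase) and 0.07 (pericentral), with Cyp2e1 5.09 and Cyp2c29 1.97 and 58 pairs above in FL_control.

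A mitochondrial limit of 50% gave 14 hepatocytes in dHep_IR, 0.95 (acute-phase, A), -0.10 (secreted, B) and rule genes at -2.26 (A) and 0.33 (B) in endothelial-like cells. A limit of 10% left 1 hepatocyte in dHep_IR. A then had 6 members higher, 0.68 (Mup) and 1.52 (acute-phase), with Alb 0.17; B had 0.25 (secreted), -3.58 (pericentral), 0.35 (periportal) and Cyp2f2 0.35, with 0.46 in endothelial-like cells. A minimum of 2000 UMIs and 500 genes gave 3 hepatocytes in dHep_IR and 15 in FL_IR, -1.57 (secreted, A), and -2.16 (A) and 0.27 (B) in endothelial-like cells. Keeping doublets gave -1.98 (A) and 0.25 (B) there, Leiden resolution 2 gave 0.45 (B), and UMIs per cell gave 0.15 (B), with -2.22 (A) and 0.60 (B) in neutrophil-like cells.

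The mean of per-cell CPM gave 12 members higher in A, -0.21 (secreted), 0.10 (Mup) and 1.24 (acute-phase), with Alb 0.41, Apoa1 0.01 and Ahsg 0.01, and 0.61 (secreted) and 2.11 (acute-phase) in B. TMM factors shifted A by -1.05 and B by 0.42, which gave 1 higher and 26 lower, -2.05 (secreted) and -0.54 (acute-phase) in A, and 0.54 and 2.29 in B. Without mitochondrial genes in the total B was 0.21 (secreted) and 1.96 (acute-phase), and without the members 0.28 and 2.02. With no minimum of UMIs the Mup median of A was 0.12, and with at least 100 UMIs the pericentral median of B was -3.82. The profile of the 3 libraries put 95 pairs above in dHep_IR, and the median profile of the other classes 19, 12 and 16 in dHep_IR, FL_IR and FL_control.

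The 4 remaining settings were added after seeing the data. Hepatocytes with at least 5% mitochondrial UMIs numbered 6 in FL_IR and 8 in FL_control and gave 0.00 (secreted), 1.52 (acute-phase) and -3.92 (pericentral) in B. Without the deepest hepatocyte of each library A had 4 lower, and B was 0.36 (secreted) and 2.38 (acute-phase). Without shallow copies dHep_IR had 4 hepatocytes and A a secreted median of -1.45. Without copies and with the 50% limit A had 5 higher and 15 lower, -1.33 (secreted) and 0.99 (acute-phase), B had -0.11 (secreted), and endothelial-like cells stood at -2.26 (A) and 0.33 (B).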
